A study of Mus musculus with 4 samples.

Results

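Differentiating oligodendrocytes are nuclei that have left the precursor state and have not yet reached the mature, myelin-bearing state. They were selected on measured values. A nucleus counted as a member if it held at least 4 UMIs (unique molecular identifiers, that is, counted RNA molecules) of Enpp6, Bmp4, Gpr17 and 9630013A20Rik together and at least 2 of Bcas1, no UMI of Pdgfra, at most 1 UMI of the neuronal genes Rbfox3, Slc17a7, Slc17a6, Gad1 and Gad2 together, and at most 1 of Csf1r, Cldn5 and Aqp4 together. Of 78728 nuclei in 4 libraries, 194 met this rule, namely 32 under cortex AAV-CTRL, 36 under cortex AAV-VEGF-C, 68 under striatum AAV-CTRL and 58 under striatum AAV-VEGF-C. Values given 4 at a time follow this order of libraries throughout. Since the members were chosen by their own transcripts, every comparison of their genes with those of other nuclei is a description, given without a test.

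Single-nucleus RNA-seq was done on brain tissue of male C57BL/6J mice at 8 weeks of age. All mice had received an AAV9 vector by injection into the cisterna magna, where cerebrospinal fluid collects, at 4 weeks of age, and tissue was taken 4 weeks later. AAV-VEGF-C carried the complete mouse VEGF-C (vascular endothelial growth factor C) sequence. AAV-CTRL encoded immunoglobulin-like domains of VEGF receptor 3 that do not bind VEGF-C, as a secreted fusion protein, so the controls also carried a virus and its secreted product. For each AAV, tissue from 5 mice was combined, and its cortex and striatum came from the same mice. Each combination of AAV and region label is 1 library without a replicate, and mice cannot be told apart within it. Differences between libraries are therefore given with counting intervals and with no test, and mice, dissection and library preparation cannot be told apart from the AAV or region label.

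Oligodendrocytes arise from precursor cells (OPCs) that carry the PDGF receptor alpha (Pdgfra) and continue to divide in the adult brain. On leaving the cell cycle, a precursor passes through a short-lived stage in which it extends branched processes, touches axons and either survives to wrap them or dies. Genes of this stage include Enpp6, a choline-specific phosphodiesterase of the cell surface, Bmp4, a secreted morphogen that restrains the lineage, Gpr17, a G protein-coupled receptor that delays maturation, and Bcas1, a gene of early myelinating cells. The gene 9630013A20Rik gives a long non-coding RNA of the same stage.

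Upstream sequences of genes that carry this stage are shown first, since the results below turn on transcripts of these genes. Each is the 250 bases before the RefSeq start site of the gene on build GRCm38.p6, written 5′ to 3′ on the strand of the gene. Capitals mark a match to one of 3 short motifs on either strand, namely the SOX motif ACAAAG, the TCF/LEF motif CTTTGA and the E-box CAGATG. Enpp6 (chr8:46986637-46986886, plus strand) and Bmp4 (chr14:46390670-46390919, minus strand) are genes of the rule. Frmd4a (chr2:4017433-4017682, plus strand), Fyn (chr10:39369549-39369798, plus strand), Tmem108 (chr9:103761838-103762087, minus strand) and Mpzl1 (chr1:165634542-165634791, minus strand) lie outside the rule and are among the genes that marked the members most.
Enpp6: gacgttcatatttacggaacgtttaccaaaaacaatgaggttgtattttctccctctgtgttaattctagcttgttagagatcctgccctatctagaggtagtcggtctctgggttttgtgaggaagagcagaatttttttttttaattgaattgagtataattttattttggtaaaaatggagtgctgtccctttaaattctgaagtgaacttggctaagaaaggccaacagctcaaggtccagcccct
Bmp4: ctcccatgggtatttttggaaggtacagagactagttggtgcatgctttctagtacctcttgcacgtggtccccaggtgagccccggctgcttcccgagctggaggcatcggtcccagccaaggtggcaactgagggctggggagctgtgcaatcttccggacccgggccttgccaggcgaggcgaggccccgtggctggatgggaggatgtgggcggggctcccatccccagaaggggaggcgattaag
Frmd4a: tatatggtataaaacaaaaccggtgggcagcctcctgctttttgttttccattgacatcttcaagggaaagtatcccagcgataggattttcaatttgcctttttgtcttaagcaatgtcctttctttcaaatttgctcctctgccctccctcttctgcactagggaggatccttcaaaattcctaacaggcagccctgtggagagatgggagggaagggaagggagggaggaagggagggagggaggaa
Fyn: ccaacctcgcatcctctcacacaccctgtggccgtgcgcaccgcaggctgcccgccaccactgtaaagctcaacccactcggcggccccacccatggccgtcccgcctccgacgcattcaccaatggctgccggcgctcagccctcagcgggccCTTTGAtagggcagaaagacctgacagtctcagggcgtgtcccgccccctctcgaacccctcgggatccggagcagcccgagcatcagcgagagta
Tmem108: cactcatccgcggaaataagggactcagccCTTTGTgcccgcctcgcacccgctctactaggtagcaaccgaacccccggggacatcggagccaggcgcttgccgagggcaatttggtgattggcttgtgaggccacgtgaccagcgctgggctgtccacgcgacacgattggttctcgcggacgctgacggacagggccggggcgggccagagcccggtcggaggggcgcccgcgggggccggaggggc
Mpzl1: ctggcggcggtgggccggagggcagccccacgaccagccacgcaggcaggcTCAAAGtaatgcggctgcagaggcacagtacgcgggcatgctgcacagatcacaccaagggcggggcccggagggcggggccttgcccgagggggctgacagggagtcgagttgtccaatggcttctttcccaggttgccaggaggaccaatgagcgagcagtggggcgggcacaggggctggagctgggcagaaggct
The windows of Fyn and Mpzl1 held 1 match each to the TCF/LEF motif and that of Tmem108 held 1 to the SOX motif, while those of Enpp6, Bmp4 and Frmd4a held none of the 3. Of the genes that were higher in members than in both neighbouring stages (below), 114 had an upstream window in the table. The SOX, TCF/LEF and E-box motifs occurred in 14.0%, 8.77% and 11.4% of them, against 11.5%, 10.7% and 9.61% of the 9828 windows of all genes compared and 16.5%, 14.0% and 14.5% of the 27025 windows in the table. A match is a description of the letters and not evidence of binding.

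The libraries held between 17168 and 23724 nuclei and between 63165470 and 78332657 UMIs. Median depth was 3284, 2822, 2882 and 3733 UMIs per member against 2622, 2873, 2272 and 2647 over all nuclei, and the members together held 99181, 103829, 211917 and 223534 UMIs. Pairs of libraries shared between 76 and 118 cell barcodes, none of them between 2 members. Scrublet called between 4.31% and 7.95% of all nuclei doublets and 1 of the 194 members. The region labels did not follow the neuronal markers. In neuron-rich nuclei (at least 5 UMIs of the neuronal genes of the rule), levels of Ppp1r1b, which encodes the striatal phosphoprotein DARPP-32, were 47.3, 57.0, 14.8 and 13.0 CPM (UMIs of the gene per 1000000 UMIs summed over the nuclei of the population in a library, the unit of all levels below), and those of the dopamine receptor gene Drd1 were 26.4, 35.1, 13.5 and 12.3. For both genes, each library labelled striatum was under each labelled cortex. Slc17a6, the glutamate transporter of thalamus and hypothalamus, was at 17.7, 18.1, 190.2 and 232. Striatal neuron genes were thus lower, not higher, in the libraries labelled striatum, and region comparisons below are comparisons of labels.

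Among the members, Bcas1 was detected in 194 of 194 nuclei by the rule, Gpr17 in 159, Enpp6 in 153, 9630013A20Rik in 150 and Bmp4 in 77. Enpp6 stood at 968, 1127, 1213 and 1132 in members, at between 0 and 3.96 in precursor nuclei and between 64.3 and 73.2 in mature nuclei. Bmp4 stood at 302, 424, 274 and 148 in members. These levels follow from the rule and are given as a description. Precursor nuclei (579 in all) were taken by at least 2 UMIs of Pdgfra and at least 1 of Cspg4, Vcan and C1ql1, with at most 1 UMI of the mature genes, and mature nuclei (5379) by at least 4 UMIs of Mog, Mag, Mobp and Opalin, with no Pdgfra and at most 1 UMI of the stage genes. The same limits on other cell types held for both.

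The marker genes were not all seen in the same nuclei. Enpp6 was seen in 64 of the 77 members with Bmp4 and in 153 of all 194 members. Median Bmp4 counts were only 0.5, 1, 0 and 0 UMIs per member. Bmp4 and Enpp6 were seen together in 64 of 194 members, Enpp6 without Bmp4 in 89, Bmp4 without Enpp6 in 13 and neither in 28. All 4 summed genes were seen in 50. Members with Bmp4 made up 16 of 32, 19 of 36, 26 of 68 and 16 of 58 nuclei, or 50%, 52.8%, 38.2% and 27.6% (95% exact binomial intervals 31.9 to 68.1, 35.5 to 69.6, 26.7 to 50.8 and 16.7 to 40.9). The share was lower in both libraries labelled striatum than in both labelled cortex, with intervals that overlapped. All intervals here and below cover counting error only.

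Few members lay just inside the threshold, and many nuclei lay just outside it. The sum of the 4 stage genes was 4 or 5 in 30 members and at least 6 in 164, with library medians of 11, 11, 13 and 16 UMIs. A further 148 nuclei met every other limit with a sum of 2 or 3. On the stage index defined in the next paragraph, nuclei just outside had library medians of 93.8, 96.8, 95.9 and 97.0, whereas members just inside had 6.27, 33.3, 96.2 and 55.6. The limit on neuronal and other-cell genes left out 145 further nuclei, the limit on Bcas1 25, and that on Pdgfra 10 with 1 and 14 with more Pdgfra UMIs.

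On a stage index that used no gene of the member rule, the members' medians lay between those of their neighbours. It is the percentage of late-list UMIs (myelin genes such as Mbp) among the UMIs of the late and early lists. The early list holds precursor genes such as Lhfpl3, Ptprz1, Xylt1 and Tnr. The lists hold some genes of the precursor and mature rules, such as Vcan and Mobp, which bear on the medians of those nuclei. Not every gene of the lists lay between the neighbours. In members Tnr was above its precursor level and Mbp above its mature level (below), so the index is a ratio and not a position for each gene. The members' medians were 30.9, 24.8, 31.4 and 39.7, with 95% intervals of the median of 9.41 to 52.5, 12 to 36.4, 22.6 to 40.8 and 27.4 to 50. Precursor nuclei had medians of 2.13, 1.85, 4.70 and 5.85 and mature nuclei medians between 96.2 and 96.8. Single members ran from 0 to 100, so the members spanned the whole range of the index, and 36 of them had an index under 10 and 19 over 90. The 4 intervals of the median overlapped.

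**Figure D1:**
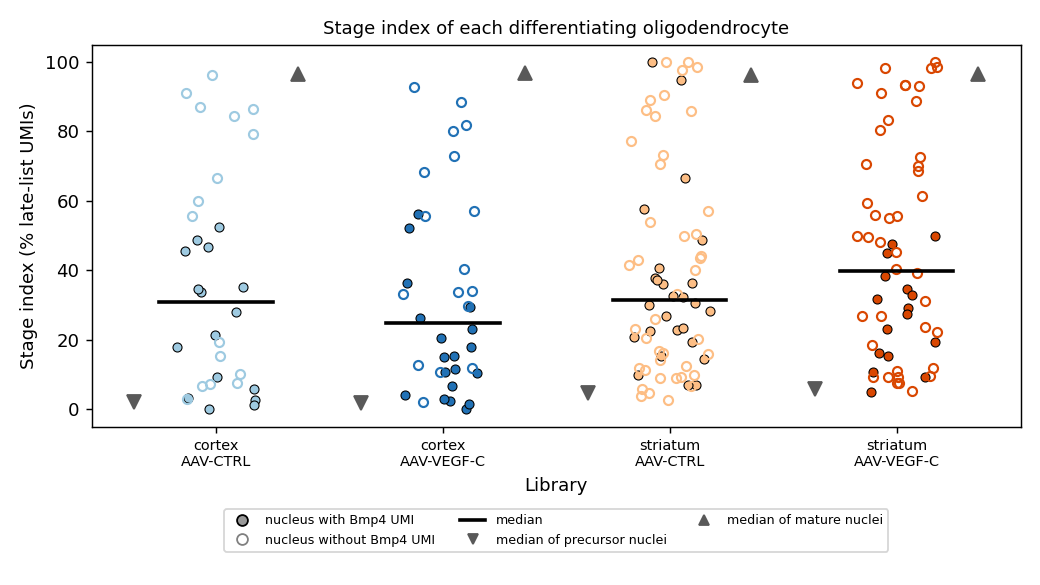
Stage index (vertical axis, percent of early- and late-list UMIs that are of the late list) of each of the 194 differentiating oligodendrocytes by library. Filled points are nuclei with a Bmp4 UMI, open points nuclei without, horizontal lines the member medians of 30.9, 24.8, 31.4 and 39.7, and triangles the medians of precursor (down) and mature (up) nuclei. Nuclei with Bmp4 lie mostly in the lower part of the range.

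Each nucleus was also set against summed profiles of 7 populations from the other 3 libraries, with the genes of the rule left out, and given to the profile of highest multinomial likelihood. Of the members, 139 (71.6%) went to the member profile, 34 to the precursor profile, 17 to the mature profile and 4 to profiles of other cell types. Those given to the precursor profile had a median index of 7.39 and those given to the mature profile 97.6. Of 579 precursor nuclei 0 went to the member profile (a count of 0 allows up to 3 nuclei), as did 1 of 5379 mature nuclei and 141 of 78534 non-members in all. The members thus shared a profile beyond the 14 genes of the rule, with an early and a late fringe. A UMI of the division genes Mki67, Top2a or Cenpf was seen in 6 of 194 members (3.09%, interval 1.14 to 6.61) and in 16 of 579 precursor nuclei (2.76%, interval 1.59 to 4.45).

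The share of members among all nuclei was 0.186% (32 of 17168, 95% exact binomial interval 0.128 to 0.263), 0.177% (36 of 20370, 0.124 to 0.245), 0.287% (68 of 23724, 0.223 to 0.363) and 0.332% (58 of 17466, 0.253 to 0.429). Among oligodendrocyte-lineage nuclei, that is, members with precursor and mature nuclei, it was 3.97%, 3.60%, 3.02% and 2.76%. The libraries labelled striatum were higher by the first measure and lower by the second. Members were 27.4, 31.0, 33.7 and 40.3 per 100 precursor nuclei, and 4.86, 4.25, 3.44 and 3.06 per 100 mature nuclei.

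The comparison of AAV labels asks whether delivery of VEGF-C went with more or fewer cells at this stage. The share among all nuclei differed by 0.948-fold (AAV-VEGF-C over AAV-CTRL, exact conditional interval 0.572 to 1.58) under the cortex label and 1.16-fold (0.802 to 1.67) under the striatum label. Among lineage nuclei the ratios were 0.909 (0.549 to 1.51) and 0.914 (0.633 to 1.32). All 4 intervals held 1, so a difference of up to about the bounds of these intervals was not detectable with this number of members. Between region labels, the share among all nuclei was 1.54-fold (0.996 to 2.42) and 1.88-fold (1.22 to 2.93) higher in striatum for AAV-CTRL and AAV-VEGF-C, and the share among lineage nuclei 0.763-fold (0.494 to 1.2) and 0.767-fold (0.498 to 1.2). Mature nuclei were 3.83%, 4.16%, 8.34% and 10.9% of all nuclei and so differed in the same direction as the members.

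**Figure D2:**
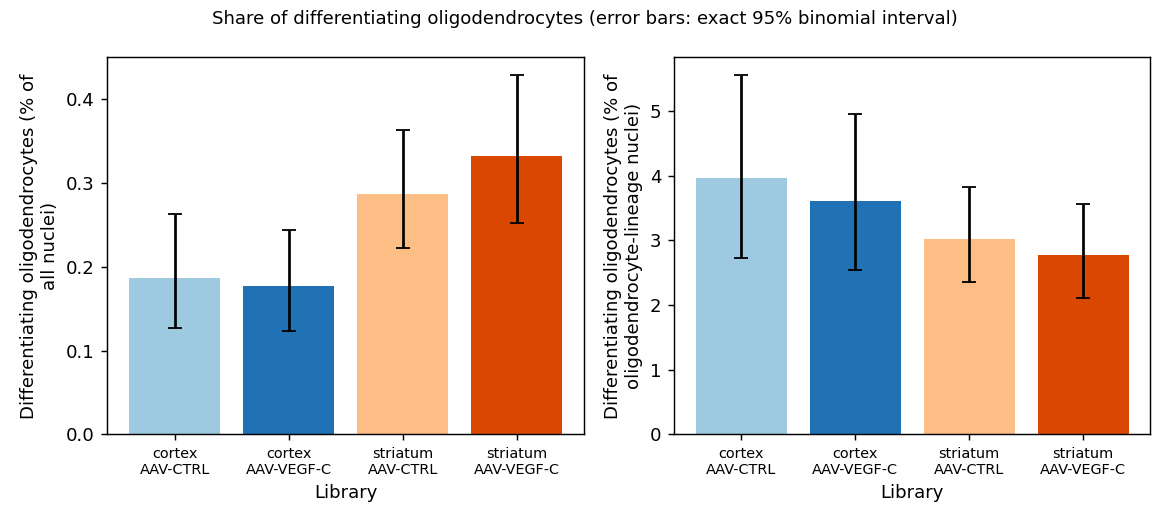
Differentiating oligodendrocytes as a percentage of all nuclei (left panel) and of oligodendrocyte-lineage nuclei (right panel) in each library, with exact 95% binomial intervals. The bars rise from 0.186% to 0.332% between the first and last library on the left and fall from 3.97% to 2.76% on the right, and the intervals of the AAV pairs overlap within each region label.

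Many genes were at their highest in this stage. A gene was called higher if its level in members was at least 2-fold that of both precursor and mature nuclei in 4 of 4 libraries, with a count of 0 in a neighbour set to a floor of 3 UMIs. Of 12925 genes compared, 147 were called higher (1.14%) and 11 lower than both (0.0851%). A further 15 genes lay between the neighbours on the way up and 31 on the way down. Of the leading 20, Frmd4a gave the most UMIs, 6338 in all. It encodes a FERM-domain scaffold protein, and its level was 11948, 10854, 8928 and 9547 in members against between 245 and 419 in precursor and between 220.2 and 327 in mature nuclei. This was 22.8 to 44.3 times the level in the higher neighbour, and it was detected in 144 of 194 members. Kif19a, a kinesin motor, had the highest minimum fold of the 20, with 24.7 to 46.0 times the higher neighbour. Only the fold of 46.0, under striatum AAV-CTRL, used counted levels. In the other libraries the precursor count was 0 and the fold was taken over the floor. Kif19a stood at 262, 289, 118 and 179 in members and no more than 1.98 in precursor and 2.56 in mature nuclei. It was detected in 73 members.

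Several signalling and adaptor genes were among the leading 20. Fyn, a Src-family kinase that couples axon contact to myelin formation, stood at 2551, 3332, 3359.8 and 2563, 8.10 to 14.6 times the higher neighbour, in 179 members. Cnksr3, a scaffold of Ras and epithelial sodium channel signalling, stood at 1149, 876, 821 and 904, 22.0 to 38.3 times. Rras2, a small GTPase, was at 272, 241, 288 and 228 and 6.70 to 18.2 times. Within each of these 3 genes the highest library was less than 1.5 times the lowest. Rinl, a Rab5 exchange factor, was at 192, 125, 189 and 129.7, and its gene (chr7:28788969-28798963) lies just downstream of Sirt2 (chr7:28766735-28788661) on the same strand, with Sirt2 itself at 968, 761, 854 and 837.

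Genes of the cell surface, cytoskeleton and matrix formed another group. Tmem108, a membrane protein of neurites, stood at 2198, 1965, 2223 and 2197 (6.33 to 10.4 times the higher neighbour), Mpzl1, a surface glycoprotein related to myelin protein zero, at 1139, 1185, 1147 and 1114 (7.35 to 7.86), and Epb41l2, the membrane-skeleton protein 4.1G, at 817, 1079, 1147 and 899 (10.1 to 14.3). Prom1 (prominin-1, a protein of membrane protrusions) was at 292, 299, 151 and 197 and Tmem2, a cell-surface hyaluronidase, at 302, 193, 429 and 201, but in 44 and 34 of 194 members only. Parvb, an integrin-linked adaptor, was at 242, 241, 160.4 and 192, Sema4a, a semaphorin, at 131, 96.3, 99.1 and 134, Rhbdl2, a rhomboid protease, at 111, 154, 236 and 201, Col20a1, a collagen, at 111, 86.7, 51.9 and 80.5 and Egflam, a matrix protein, at 101, 67.4, 37.8 and 89.5. The last 2 rested on 49 and 45 UMIs in all.

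Non-coding transcripts were also among the 20. 9530059O14Rik was at 2047, 1829.9, 1769.6 and 2004 in 165 members, 15.7 to 19.2 times the higher neighbour, and Gm26834 at 232, 135, 89.7 and 85.0. Bcas1os2 (chr2:170356361-170380435, plus strand) lies within Bcas1 (chr2:170346991-170427845, minus strand), a gene of the rule, and Gm16365 (chr10:39558496-39613682, minus strand) overlaps the end of Fyn (chr10:39368855-39565381, plus strand). They were at 867, 876, 835 and 863 and 111, 154, 175 and 228. How reads of overlapping genes were assigned is not given in the sources used here, so the levels of these 2 are uncertain.

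**Figure D3:**
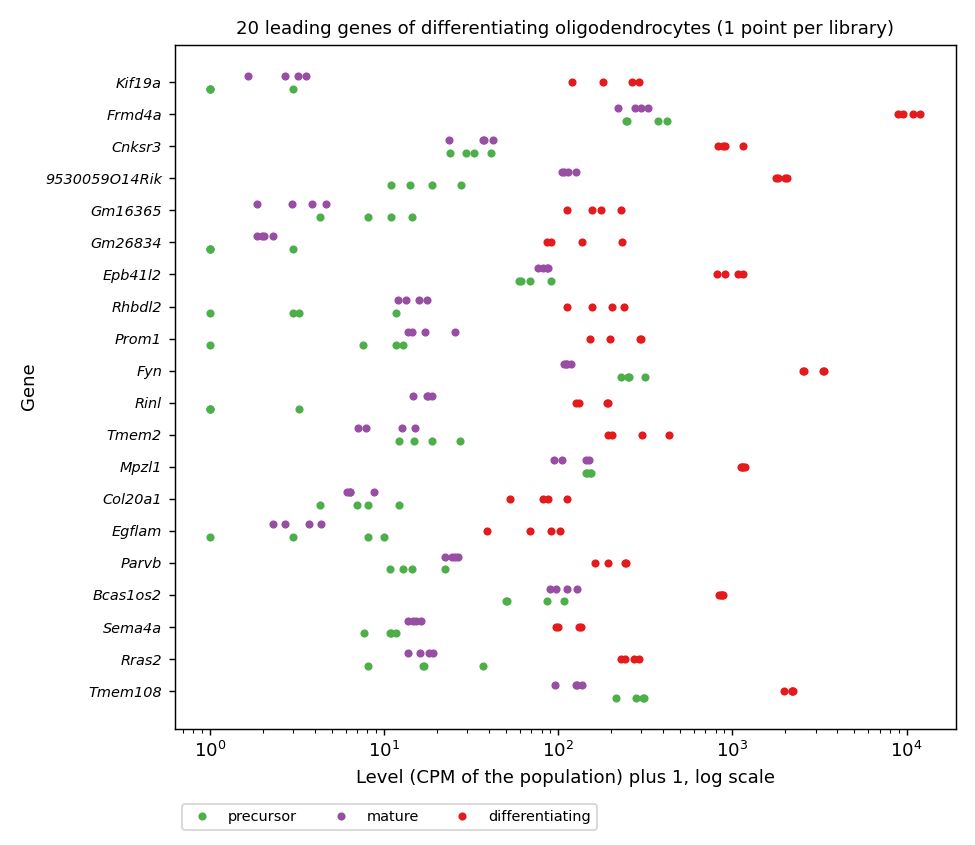
Levels of the 20 leading genes of differentiating oligodendrocytes, 1 row per gene, in CPM plus 1 on a log scale, with 1 point per library for differentiating, precursor and mature nuclei. The points of differentiating nuclei lie to the right of all others in every row, at least 6.33 times the higher neighbour in each library.

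The 11 genes that were lower than in both neighbours included genes of signalling and adhesion. March1, a membrane ubiquitin ligase, stood at 70.6, 48.2, 127 and 139 in members, between 1068 and 1267 in precursor and between 351 and 683 in mature nuclei. Spred2, an inhibitor of Ras-ERK signalling, was at 10.1, 19.3, 4.72 and 17.9 against at least 101 and 49.8. Ptn, the growth factor pleiotrophin, was at 262, 222, 311 and 273 against at least 777 and 701. Hepacam, a glial adhesion protein, was at 20.2, 38.5, 66.1 and 44.7, and Lifr, the receptor of leukemia inhibitory factor, at 20.2, 28.9, 37.8 and 22.4. Samd4, an RNA-binding protein, Arhgap21, a GTPase-activating protein, the non-coding gene Pvt1, C1qtnf4, the sialyltransferase St6gal1 and the kinase Sgk3 completed the set, with members 2.22 to 2.68 times lower than the lower neighbour for C1qtnf4 and 3.78 to 5.63 times for Samd4.

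The genes of known stage roles behaved as follows. Of 23 genes listed for committed and newly formed oligodendrocytes, 16 were higher than in both neighbours and 0 lower, with a median log2 level of 2.81 over precursor and 3.14 over mature nuclei, against -0.14 and -0.20 over all genes compared. This list was drawn up with earlier results of these data known and holds genes that define such cells, so its count is a description. Tcf7l2, a transcription factor of the Wnt pathway, stood at 1462, 1965, 1779 and 1615 in members (5.66 to 12.9 times the higher neighbour), Tns3, a tensin of focal contacts, at 1613, 1734, 1619 and 1521, and Itpr2, an inositol trisphosphate receptor, at 1119, 1079, 1354 and 854. Neu4, a sialidase, was at 292, 405, 293 and 295, 1.10 to 2.14 times the higher neighbour, and did not reach 2-fold in every library. Arap2 was at 90.7, 28.9, 84.9 and 62.6 in members and between 213 and 265 in mature nuclei.

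Among 39 transcriptional regulators of the lineage, 1 was higher (Tcf7l2), and Sox5, a SOX factor of precursors, lay between the neighbours at 333, 308, 344 and 295, under between 774 and 1103 in precursor nuclei. St18, a zinc-finger factor, stood at 2017, 1820.3, 2105 and 2304 in members, against between 14.1 and 33.7 in precursor and between 1804 and 2193 in mature nuclei. Its level was thus close to that of mature nuclei. Zeb2, a repressor that dampens BMP signalling in this lineage, was at 2057, 2051, 2548 and 1874. In the Wnt list 2 of 24 were higher, Tcf7l2 and its relative Tcf7l1 at 323, 327, 245 and 291, and Daam2, an effector of Wnt signalling, lay between on the way up. In the BMP list 0 of 18 and in the Notch list 0 of 13 were higher or lower. Over all genes compared, 1.14% were higher and 0.0851% lower, so counts of 0 or 1 in these lists are near the background. Smad7, an inhibitor of BMP and TGF-beta signalling, was at 242, 154, 146 and 219 in members against between 10.6 and 31.2 in precursor and between 189.8 and 217 in mature nuclei.

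Genes of the precursor list stood at unequal levels in this stage. Of 13 such genes that no rule used, 7 lay between the neighbours on the way down in 4 of 4 libraries (Cacng4, Lhfpl3, Megf11, Nxph1, Ptprz1, Sox5 and Xylt1). Lhfpl3 stood at 434, 732, 878 and 702 in members against between 3716 and 5111 in precursor and between 32.3 and 130.3 in mature nuclei, and Ptprz1, a receptor phosphatase of precursors, at 363, 443, 538 and 465 against between 1734 and 2271 and between 71.7 and 113. Tnr, which encodes the matrix protein tenascin-R, was above its precursor level. It stood at 7138, 9439, 8027 and 7180.1 in members against between 3017 and 3983 in precursor and between 89.1 and 97.5 in mature nuclei, a log2 ratio of mean levels of 1.16 and 6.43. Sox6 and Luzp2 were close to their precursor levels, with log2 ratios of 0.26 and -0.10, and Pcdh15 and Mmp16 were at -2.55 and -2.53.

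Myelin genes were also unequal. Mbp, myelin basic protein, stood at 3720.5, 2803, 2605 and 3257 in members, between 88.2 and 168 in precursor and between 2316 and 2437 in mature nuclei, and so was above its mature level in each library. Cldn11, the myelin tight-junction claudin, was at 444, 626, 406 and 479 against between 781 and 958 in mature nuclei. Aspa, aspartoacylase, at 0, 9.63, 109 and 76.1, Hapln2, a link protein of nodes, at 0, 0, 51.9 and 31.3, and Mal, a myelin proteolipid, at 30.2, 9.63, 255 and 174, were far under their mature levels, which lay between 567 and 666, between 125 and 154 and between 1319 and 1849.6. Mature levels of Mag, Mog, Mobp and Opalin were raised by the rule that took mature nuclei.

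A few genes for axon contact and process growth were at their highest here. Over all genes compared, 1.14% were called higher. A count of 1 in 48 genes is near that share, and 1 in 23 is a single gene. Of 45 adhesion and guidance genes 3 were higher. Nfasc, neurofascin of nodes and paranodes, stood at 4638, 4228, 3289 and 4308 (4.19 to 6.53 times the higher neighbour), Sema4d at 1119, 1185, 812 and 738 and Sema5a at 1189.7, 1049.8, 1104 and 1194. Unc5b, a netrin receptor, lay between on the way up. Of 48 genes of cytoskeleton and process growth 1 was higher, Map1b, a microtubule-associated protein, at 1240.2, 1724, 1420.4 and 1610.5 (2.44 to 3.43), and Sept4 lay between on the way up. Of 23 genes of the mTOR and Akt list, Rictor, a subunit of mTOR complex 2, was higher at 575, 318, 387 and 353 (3.20 to 6.31).

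Other lists held no gene called higher or lower than both neighbours. With 1.14% of all genes called higher and 0.0851% lower, a count of 0 in a list of this size is near the background. The lists were cholesterol synthesis (0 of 24, median log2 of 0.53 over precursor and -0.26 over mature nuclei), myelin lipids (0 of 24), growth factor receptors (0 of 24), G protein-coupled receptors (0 of 25), transmitter receptors and channels (0 of 45), the cell cycle (0 of 14), cell death and survival (0 of 28), iron and antioxidant genes (0 of 17) and immediate early genes (0 of 19). Fgfr2 was at 837, 645, 543 and 1042 and Erbb4, a neuregulin receptor, at 1754, 1657, 1968 and 2035. Of 20 genes of BDNF and Trk signalling Fyn alone was higher, and of 20 immune and stress genes of oligodendrocytes Sgk3 alone was lower. Tfeb, a lysosomal transcription factor that restrains myelination, was at 171, 308, 212 and 188, 1.80 to 3.98 times the higher neighbour.

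Receptor genes of the VEGF family gave few UMIs in members. The study delivered the ligand of Flt4 (VEGF receptor 3), and 1 Flt4 UMI was seen in 194 members. Over all members, 2 UMIs of Kdr (VEGF receptor 2), 15 of Flt1 in 6 nuclei, 19 of the co-receptor gene Nrp1 and 16 of Nrp2 were counted. Nrp1, Nrp2 and Flt1 stood at 29.8, 25.1 and 23.5 CPM over all members, above the level of 3 counts, and Kdr and Flt4 were under it. In nuclei with at least 2 Cldn5 UMIs, an endothelial gene, the levels of Flt1, Kdr and Flt4 were 3454, 279.6 and 60.4 CPM. The ligand genes gave 25 UMIs for Vegfa, 15 for Vegfb and 2 for Vegfc, and 0 for Vegfd and Pgf, which allows a level of up to 4.70 CPM at 3 counts. Vegfa stood at 39.2 CPM in members, 64.2 in precursor and 22.6 in mature nuclei. Nrp2 was at 79.7 CPM in precursor and 48.0 in mature nuclei, both above its level in members.

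Within the members, the early and late part of the index differed in many genes. The members of each library were cut into lower, middle and upper terciles of the index, with 66, 65 and 63 nuclei in all. Of 2142 genes compared outside the index and the rule, 257 were higher in the upper tercile (12.0%) and 306 lower (14.3%) by at least 2-fold in the pooled counts, with an interval off 1 and the same direction in 4 libraries. The index is made from transcripts of the same nuclei, so these too are descriptions. Ephb1, an ephrin receptor, stood at 48.6, 533 and 1269.7 in the lower, middle and upper tercile, Mob3b, a kinase regulator, at 21.6, 206 and 614, and Tmem2 at 10.8, 88.8 and 689. Rras2 (5.40, 56.1 and 631), Prom1 (5.40, 84.1 and 489), Man1a, a Golgi mannosidase (16.2, 14.0 and 593), and Tspan9, a tetraspanin (16.2, 23.4 and 476), were nearly absent from the lower tercile. Thsd4, Gm42439 and Gm26834 did the same. Of other genes among the leading 20, Fyn was at 3587, 3828 and 1675 and Epb41l2 at 956, 1715 and 388, highest in the middle tercile.

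Other genes were highest in the lower tercile. Ptprt, a receptor phosphatase, stood at 1934, 687 and 125 in the lower, middle and upper tercile, Brinp3 at 1129, 359.9 and 66.8, and Sgcd, delta-sarcoglycan, at 983, 252 and 12.5. Sntg1, gamma-1 syntrophin, was at 767, 210.3 and 62.7, Cntn6, a contactin, at 384, 74.8 and 8.35, Itga9, an integrin subunit, at 465, 229 and 12.5, and Sema5b, a semaphorin, at 346, 252 and 20.9. Gm4876, 3110035E14Rik and Fam19a2 followed the same course. All were lower in steps from the lower over the middle to the upper tercile in the pooled counts.

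The genes of the rule turned over along the same axis. A Gpr17 UMI was found in 65 of 66 nuclei of the lower tercile, 61 of 65 of the middle and 33 of 63 of the upper. Bmp4 was found in 28, 40 and 9 nuclei of these, and Enpp6 in 42, 61 and 50. The median Bcas1 count was 8.5, 16 and 5 UMIs per nucleus, and that of 9630013A20Rik 1, 4 and 10. Median depth also rose, from 2635.5 over 3274 to 3718 UMIs per nucleus, and these counts were not scaled for depth. In these pooled nuclei Gpr17 was most frequent in the lower tercile, Bmp4 and Enpp6 in the middle, and the median count of 9630013A20Rik was highest in the upper. Single libraries differed from this. Under cortex AAV-VEGF-C, Bmp4 was found in 9 of 12 nuclei of the lower and 7 of 12 of the middle tercile, and under striatum AAV-CTRL the median count of 9630013A20Rik was 4 in the middle and 3.5 in the upper. Nuclei with Bmp4 had median indices of 24.7, 15.0, 30.2 and 28.3 in the 4 libraries, and nuclei without it 57.8, 40.3, 36.7 and 52.6. A nucleus with few of the early markers could enter the rule only through the others, so these shares depend on the rule as well as on the cells.

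Between AAV labels, genes were called if the ratio of levels was at least 1.5-fold with a counting interval off 1, among genes with at least 20 UMIs in the 2 libraries. Under the cortex label 98 of 2078 genes were higher with AAV-VEGF-C (4.72%) and 94 lower (4.52%), and under the striatum label 133 of 4566 were higher (2.91%) and 173 lower (3.79%). Of 2050 genes compared under both labels, 2 were higher in both, 3 were lower in both and 15 went opposite ways. The median log2 ratio over all genes was 0.02 and -0.05. The 2 comparisons share no library, but the same mice gave cortex and striatum of an AAV group.

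The 2 genes higher under both labels were Rps29, a ribosomal protein gene, and AC149090.1. Rps29 stood at 464, 809, 293 and 461 in members, a log2 ratio of 0.80 (95% counting interval 0.27 to 1.35) for cortex and 0.66 (95% counting interval 0.19 to 1.13) for striatum. AC149090.1 stood at 797, 1252, 533 and 895, with log2 ratios of 0.65 and 0.75. Both were also above 0 on the log2 scale in the neighbours. In precursor nuclei the ratios were 0.60 and 0.75 for Rps29 and 0.68 and 0.92 for AC149090.1, and in mature nuclei 0.69 and 0.60 for Rps29 and 0.29, under the fold, and 0.64 for AC149090.1.

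The 3 genes lower under both were Kif5b, a kinesin heavy chain that carries myelin RNA and organelles, and the receptor phosphatases Ptprg and Ptprt. Kif5b stood at 282, 144, 264 and 121, with log2 ratios of -0.97 (95% counting interval -1.98 to -0.01) and -1.13 (95% counting interval -1.85 to -0.44). Ptprg stood at 434, 241, 429 and 233 and Ptprt at 1028, 665, 1128 and 559, with ratios of -0.63 and -1.01 for Ptprt. In each of the 3, both AAV-VEGF-C libraries were under both AAV-CTRL libraries. In precursor nuclei all 3 had ratios under 0 on the log2 scale under both labels, none past the fold, with -0.33 and -0.32 for Kif5b. In mature nuclei the ratios were 0.19 and 0.04 for Kif5b, 0.02 and -0.52 for Ptprg and -0.27 and -0.37 for Ptprt. Ptprt was also lower in the upper tercile of the index, and the index median was 24.8 against 30.9 under the cortex label and 39.7 against 31.4 under the striatum label. In a setting chosen after seeing the data, the nucleus with most UMIs of a gene was left out of the higher library only. This works against each call, and 0 genes then remained higher and 0 lower under both labels.

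Of the 15 genes that went opposite ways, most were lower with AAV-VEGF-C in cortex and higher in striatum (Immp2l, Mb21d2 and Tubb5 were the exceptions). Ank3, ankyrin-G of axon initial segments and nodes, stood at 1835, 1098, 1227 and 1977, with log2 ratios of -0.74 (95% counting interval -1.09 to -0.40) and 0.69 (95% counting interval 0.46 to 0.92). Pak7, a p21-activated kinase, was at 373, 173, 293 and 702, Lingo2, a leucine-rich repeat protein, at 565, 231, 297 and 617, and Grm7, a metabotropic glutamate receptor, at 222, 67.4, 236 and 658. Lpar1, a lysophosphatidic acid receptor of maturing oligodendrocytes, was at 192, 57.8, 151 and 295. Tubb5, a beta-tubulin, went the other way, at 60.5, 193, 179 and 89.5.

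**Figure D4:**
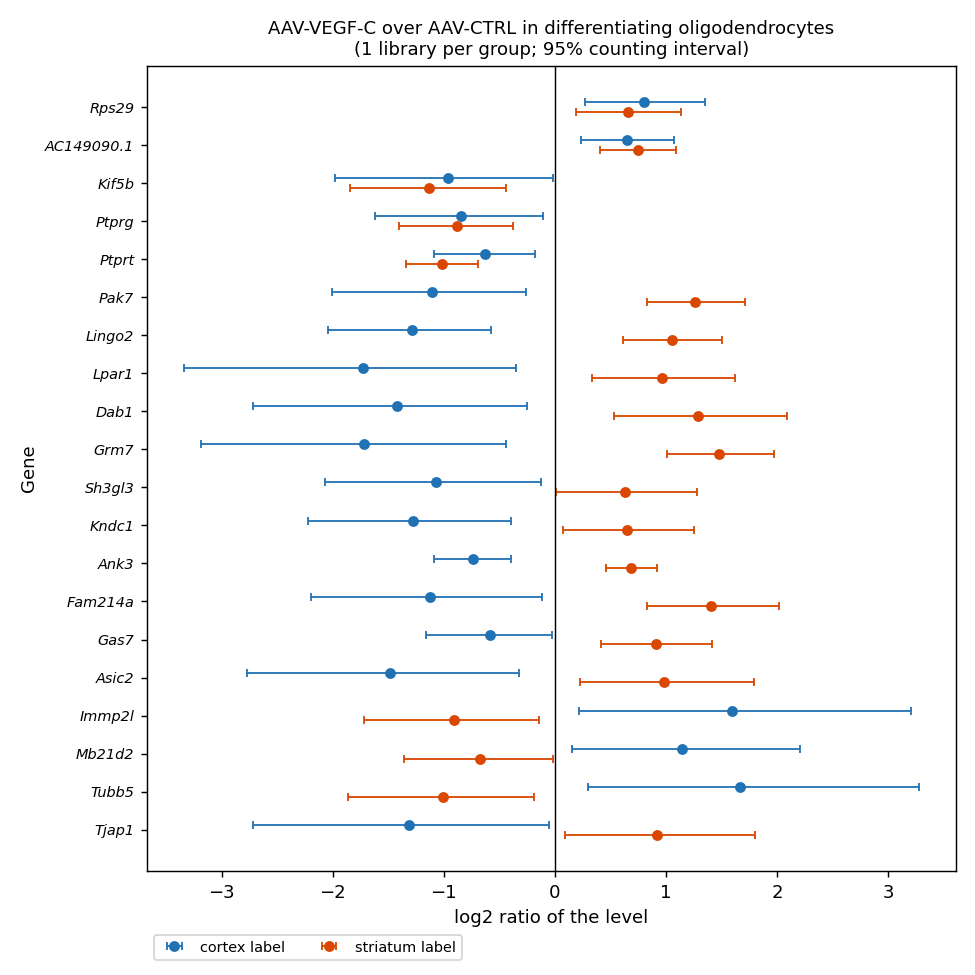
log2 ratio of the level in differentiating oligodendrocytes, AAV-VEGF-C over AAV-CTRL, with 95% counting intervals, for the 5 genes called the same way and the 15 called opposite ways under the cortex and striatum labels, 1 row per gene. Each point compares 2 libraries. Rps29 and AC149090.1 lie right of 0 under both labels, Kif5b, Ptprg and Ptprt left of it.

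The largest ratios of single labels rested on few nuclei. Under the cortex label the 4 globin genes Hba-a2, Hbb-bs, Hbb-bt and Hba-a1 led with AAV-VEGF-C. Hbb-bs gave 5, 329, 31 and 46 UMIs in the 4 libraries, of which 309 of the 329 were in 1 nucleus. Hba-a1 had a log2 ratio of 4.59, and -1.07 with the nucleus highest for it left out. Rps10, a ribosomal protein gene, followed at 30.2, 212, 160.4 and 116, in 18 of 36 members with AAV-VEGF-C. The leading genes lower with AAV-VEGF-C were Rangap1, a Ran GTPase-activating protein, at 222, 38.5, 51.9 and 76.1, Wdr17, A330102I10Rik, Galnt10 and Robo2, a Slit receptor, at 222, 48.2, 70.8 and 89.5. Their ratios under the striatum label had the opposite sign and were not called (0.55, 0.85, 0.40, 0.24 and 0.34 on the log2 scale). That of Wdr17 was past 1.5-fold, with an interval that held 1.

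Under the striatum label Wnk2, a kinase, led at 40.3, 67.4, 4.72 and 89.5 (20 UMIs in 14 nuclei against 1 in 1), with Fstl5 (19 UMIs in 3 nuclei against 1 in 1), Pdzrn3 at 101, 67.4, 18.9 and 174, Emc4 at 10.1, 38.5, 14.2 and 76.1 and Ift43 at 30.2, 28.9, 18.9 and 98.4. Lower with AAV-VEGF-C were Mgp, matrix Gla protein, at 10.1, 9.63, 89.7 and 4.47, Fstl1 at 0, 9.63, 142 and 17.9 and Il33, an alarmin of oligodendrocytes and other glia, at 0, 9.63, 89.7 and 13.4. Bnc2 and Nov gave 26 and 24 UMIs with AAV-CTRL and none with AAV-VEGF-C, in 2 nuclei each. For Bnc2, Nov, Mgp and Fstl1 most UMIs under striatum AAV-CTRL were in 1 nucleus for each gene, which held 25 of 26, 23 of 24, 14 of 19 and 23 of 30 of them. In that library 1 member was given to the endothelial profile. Mgp, Fstl1, Bnc2 and Nov are known from fibroblasts and vascular walls. Vascular markers were at 121, 193, 269 and 157 CPM summed over 17 genes in members, with 10, 9, 4 and 3 of the 17 at 0. Their part in these results was not tested.

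The lists were compared between AAV labels against the shares over all genes, 4.72% higher and 4.52% lower under the cortex label and 2.91% and 3.79% under the striatum label. Of the genes for committed and newly formed cells, 1 of 20 was higher and 1 lower under the cortex label (Lims2 and Elovl7), and 0 and 2 of 21 under the striatum label (Itpr2 and Tmem2), with median log2 ratios of 0.00 and -0.14. Of the precursor list 3 of 13 were higher under the cortex label (Lhfpl3, Nxph1 and Xylt1) and 2 of 14 lower under the striatum label (Cacng4 and Vcan). Of the myelin list 1 of 6 was lower under the cortex label, Mobp at 676, 222, 524 and 765, and 0 of 12 were past the fold under the striatum label. Among adhesion genes 3 of 29 were higher and 3 lower under the cortex label and 1 and 1 of 39 under the striatum label. In the BMP, Notch and Wnt lists, Bmpr2 and Rbpj were higher under the striatum label, and Apc and Daam1 lower under the cortex label.

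Between region labels, 192 of 3316 genes were higher in striatum (5.79%) and 161 lower (4.86%) for AAV-CTRL, and 172 of 3471 were higher (4.96%) and 176 lower (5.07%) for AAV-VEGF-C. Of 2900 genes compared in both, 27 were higher in both, 47 lower in both and 15 opposite. Among the 27 higher genes Mal stood at 30.2, 9.63, 255 and 174, with log2 ratios of 3.07 (95% counting interval 1.45 to 5.40) and 4.18 (95% counting interval 1.62 to 9.52), Trf, the iron carrier transferrin, at 40.3, 57.8, 165 and 237, and Apod, apolipoprotein D, at 20.2, 9.63, 146 and 224. In all 3 both libraries labelled striatum were above both labelled cortex. In neuron-rich nuclei Mal was at 37.5, 41.1, 71.2 and 76.1. The members given to the mature profile numbered 0, 0, 7 and 10, so all 17 were in the libraries labelled striatum, and their part in these ratios was not tested. With at least 6 UMIs of the summed stage genes required of a member, 16 genes were higher in both, 13 of them among the 27. Of the myelin list, 3 of 10 genes were higher for AAV-CTRL (Aspa, Mal and Trf) and 6 of 9 for AAV-VEGF-C (Mal, Mobp, Mog, Opalin and Trf among them), with median log2 ratios of 0.52 and 1.79 against 0.07 and -0.02 over all genes.

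Prr5l, a regulator of mTOR complex 2, stood at 20.2, 9.63, 307 and 309 in members, with UMIs in 13 and 11 nuclei of the libraries labelled striatum. Its ratios in mature nuclei were 0.40 and 0.43 on the log2 scale against 3.93 and 5.00 in members. The members given to the mature profile were all in these libraries, and their part in the Prr5l ratios was not tested. Tmem117 stood at 10.1, 9.63, 227 and 143 and Shtn1 (shootin-1, of growth cones) at 10.1, 28.9, 127 and 157. For Tmem117 precursor nuclei differed as much, by 4.10 and 4.48. Zfhx3, Scg2, Hap1 and Pde7b, which are also expressed by neurons, followed. Of the 27, 21 had the same sign in both comparisons in precursor and 25 in mature nuclei, with 8 and 7 past the fold.

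The leading genes of the 47 lower included transcripts known from neurons. Nrgn, neurogranin of cortical excitatory neurons, stood at 817, 886, 75.5 and 53.7 in members, 925, 1053, 108 and 96.5 in Aqp4-positive nuclei and 609.7, 710.3, 78.0 and 61.4 in neuron-rich nuclei. Camk2n1, an inhibitor of CaM kinase, stood at 797, 645, 80.2 and 89.5, Mef2c, a transcription factor of cortical neurons, at 504, 414, 104 and 49.2, and Egr1, an immediate early gene, at 282, 269.7, 42.5 and 8.95. Ctxn1, Cck, Hpca, Cacna2d1, Nptxr and Camk2a completed the leading 10. Of the 47 genes, 46 had the same sign in both comparisons in precursor nuclei and 46 in mature nuclei, with 36 and 41 past the fold in both. Nrgn was thus lower under the striatum label in nuclei of each of these types. The 16 neuronal markers summed to 5193, 4556, 3138 and 3905 CPM in members, against between 24163 and 26717 over all nuclei. The part of free RNA in the droplets in these results was not tested.

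**Figure D5:**
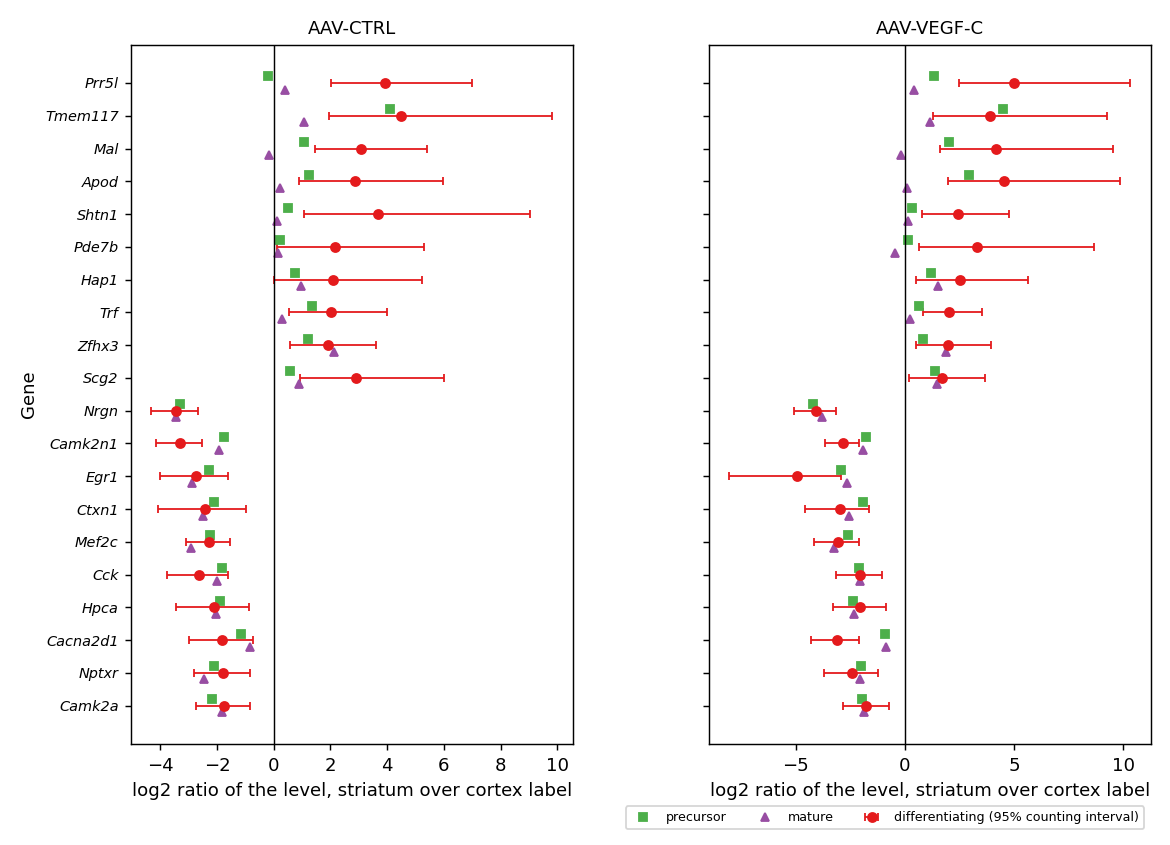
log2 ratio of the level, striatum over cortex label, for the 10 leading genes higher (upper rows) and the 10 lower (lower rows) in both comparisons, for AAV-CTRL (left) and AAV-VEGF-C (right). Circles with 95% counting intervals are differentiating oligodendrocytes, squares precursor and triangles mature nuclei. For Nrgn, Camk2a and Hpca the 3 stages lie together, while for Prr5l and Mal the differentiating nuclei lie to the right of the mature ones.

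Markers of other cell types were present at low levels. Astrocyte markers summed to 1331, 770.5, 976.8 and 1163 CPM in members over 14 genes, with 3, 4, 0 and 0 of them at 0, and microglial markers to 151, 135, 165 and 139 over 14 genes, with 5, 7, 3 and 4 at 0. Over all nuclei the same sums were 2532 to 3002 and 313 to 391. Of the vascular list Ptprb, a receptor phosphatase, was higher in members than in both neighbours, at 40.3, 106, 61.3 and 31.3. It was 1 of 16 genes compared, and over all genes 1.14% were called higher. In the library labelled cortex AAV-VEGF-C 1 precursor nucleus held 33732 UMIs, and the ependymal list summed to 16949 CPM in precursor nuclei there, with Ttr, the transthyretin of choroid plexus, at 16590.1 there and at most 134 in the other libraries. Under striatum AAV-VEGF-C the deepest precursor nucleus held 30514 UMIs, and the vascular list summed to 542 CPM in precursor nuclei there. That list was at 357, 255 and 247 CPM in precursor nuclei under cortex AAV-CTRL, cortex AAV-VEGF-C and striatum AAV-CTRL. Levels were also taken as the mean over nuclei of each nucleus's own share, which lowers the weight of such nuclei. By this measure 140 genes were higher in members and 128 of the 147 were among them.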

How the data were processed

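Nuclei of pooled cortex or striatum were profiled with 10x Genomics Chromium 3′ v3 chemistry. The authors aligned reads to mm10 with Cell Ranger and deposited counts of UMIs per gene and nucleus. The deposited file headers name version 5.0.1 and the submitters' processing notes 5.1.1. The annotation and the treatment of intronic reads are not given in the sources used here. Counts were used as deposited. Groups came from the sample titles. Each matrix held 31053 genes. The members and the gene lists were chosen with earlier results of these data known. One library per group leaves no spread between replicates, so no test was run.

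UMIs were summed over the nuclei of a population in a library and divided by the population's total (CPM, per 1000000 UMIs). Intervals are exact at the 95% level, binomial for shares and conditional on the summed counts for ratios. They treat nuclei and molecules as independent. A count of 0 in a denominator was replaced by 3 counts. Comparisons of stages needed 40 UMIs per gene and those between libraries 20. Genes of all 3 rules were left out of comparisons between stages and between terciles. Comparisons between libraries left out the genes of the member rule only, so genes of the precursor and mature rules, such as Vcan and Mobp, were compared there. The index used no gene of the member rule and kept those of the other rules. Named genes are the 20 higher and 10 lower genes with the largest minimum fold between stages, the 10 in each direction between terciles, the 5 in each direction between AAV or region labels, and up to 10 in each direction past the fold under both, with genes of fixed lists. Genes named for being opposite under both labels, and St18, Zeb2, Smad7, Neu4, Arap2, Fgfr2, Erbb4 and Tfeb of the lists, were chosen after their values were seen. Doublets were called with Scrublet in scanpy 1.11.5 and kept. Python 3.11.15, NumPy 2.4.6, SciPy 1.17.1, pandas 2.3.3 and matplotlib 3.10.9 were used. Gene positions are of GENCODE vM21 on GRCm38, and upstream sequences are from RefSeq. The procedures were tested on simulated data. Alternatives were other size factors, minimum counts, weights per nucleus, marker thresholds, depth thinned to 1500 UMIs, removal of doublets, and 2 settings chosen after seeing the data.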

Additional observations from a re-analysis of the deposited data

Results flagged for a closer look

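For 15 genes, the ratio of AAV-VEGF-C to AAV-CTRL in differentiating oligodendrocytes was past 1.5-fold in opposite directions under the cortex and striatum labels. Each label gives 1 pair of libraries, and the difference between the labels was not tested. On the log2 scale, the striatum ratio minus the cortex ratio was 1.43 for Ank3, 2.47 for Asic2, 2.71 for Dab1, 2.53 for Fam214a, 1.5 for Gas7, 3.20 for Grm7, 1.93 for Kndc1, 2.34 for Lingo2, 2.70 for Lpar1, 2.37 for Pak7, 1.70 for Sh3gl3 and 2.24 for Tjap1. It was -2.51 for Immp2l, -1.82 for Mb21d2 and -2.67 for Tubb5. With the nucleus that held most UMIs of a gene in the higher library left out, 1 gene remained past the fold in opposite directions.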

How the results depend on the processing

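Of the values recomputed under alternatives, 273 were classed as unchanged in direction, call or approximate size, and 51 counts or shares moved. A further 23 ratios of single genes were no longer past the fold and 1 changed direction. For a count of genes, unchanged refers to the total and not to the genes in it. Of the 98 genes higher with AAV-VEGF-C under the cortex label, 64 were among the 98 found with means over nuclei. With at least 6 marker UMIs, 65 of them were among 86, and without doublets all 98 were kept. No paired analysis was possible because each group has 1 library and no test was run. With no UMI of other-cell genes allowed, members were 0.0641%, 0.0638%, 0.126% and 0.109% of all nuclei, and 2.07% of lineage nuclei under striatum AAV-VEGF-C. With nuclei thinned to 1500 UMIs and shallower ones left out, the member rule was loosened to at least 2 stage-gene UMIs and a Bcas1 UMI. The precursor and mature rules kept their minimum counts. The shares were then 0.417%, 0.421%, 0.763% and 0.847% of all nuclei and 8.42%, 8.15%, 7.71% and 6.15% of lineage nuclei. They differ from the main shares in rule as well as in depth. Without a minimum count, 179 genes were higher between AAV labels in cortex, 221 higher and 264 lower in striatum, and 294 and 302 lower between region labels for AAV-CTRL and AAV-VEGF-C. With a minimum of 50 UMIs the higher and lower counts were 48 and 38 (AAV, cortex), 66 and 95 (AAV, striatum), 85 and 76 (region, AAV-CTRL), and 91 and 82 (region, AAV-VEGF-C). In a setting chosen after seeing the data, the nucleus highest for each gene was left out of the higher library only, which works against each call. The counts were then 34 and 24, 38 and 69, 97 and 67, and 80 and 75, and 12 of 30 named AAV ratios stayed past the fold. Hba-a1 then changed from 4.59 to -1.07 on the log2 scale, since nearly all its UMIs in the higher library were in 1 nucleus. Genes higher under both AAV labels numbered 5 without a minimum, 5 with at least 6 marker UMIs and 0 without the highest nucleus. Those lower numbered 5 with median-ratio size factors, 5 without a minimum, 6 with means over nuclei, 5 with at least 6 marker UMIs and 0 without the highest nucleus. Genes higher under both AAV groups between regions numbered 14 with the higher minimum, 16 with at least 6 marker UMIs and 13 without the highest nucleus, and those lower 23 and 25 with the higher minimum and without the highest nucleus. In the libraries labelled cortex alone, also chosen after seeing the data, 243 genes were higher and 158 lower than in both neighbours, since fewer libraries had to pass, and with at least 6 marker UMIs 18 were lower. The other causes were not tested. The number of members limits the cortex libraries most, at 32 and 36.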
